A study of Rattus norvegicus with 6 samples.

Results

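Transcripts of skeletal and heart muscle were examined in the rat aorta, a vessel whose own muscle is smooth muscle. The members were 41 genes, 31 of skeletal and 10 of cardiac muscle, and every probe set given 1 gene symbol among them was taken. This gave 55 of the 8799 probe sets, 39 for 26 skeletal genes and 16 for 9 cardiac genes. Mylpf, Tnnt1, Actn3, Ryr1, Mb and Tnnc1 had no such probe set and were not analysed here.

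The arrays compare spontaneously hypertensive rats (SHR), an inbred strain with high blood pressure, that ran in wheel cages by choice for 5 weeks with SHR that did not run. Each group had 3 chips, called A, B and C, the labels also giving the runner chips the letters D, E and F in that order. Each chip carried RNA of 3 pooled aortae, so all groups share the strain and the hypertension. The labels give neither the sex and age of the animals, nor what was trimmed from the vessel, nor whether the chip letters mean anything across groups. All 14 probe sets of the smooth muscle markers lay above the control level on every array. The control level, used throughout as a guide to what is measurable, is an intensity of 40.8. It is the value below which 95% of readings fell for 19 controls aimed at yeast transcripts or at the sense strand. Non-runner B stood apart, with a 3'/5' beta-actin ratio of 2.14 against 1.22 to 1.67 on the other chips.

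Striated muscle contracts when calcium released from the sarcoplasmic reticulum binds troponin on the actin filament and frees it for myosin. Fast skeletal fibres, slow skeletal fibres and heart muscle build this machinery from different members of the same gene families. Creatine kinase and glycogen phosphorylase supply these fibres with energy. Some of the genes, such as Myh7, Myl2 and Myl3, serve both the heart and slow skeletal fibres, and others, such as Car3 and Tpm3, are also made by cells that are not muscle.

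Upstream sequences are shown for 3 genes that later stand together, Acta1 (skeletal actin), Ckm (muscle creatine kinase) and Atp2a1 (the calcium pump of fast fibres), which were picked after their values were seen. Each run is the 250 bases before the annotated start in RefSeq on GRCr8, 5′ to 3′ on the gene's strand. They lie at chr19:68784195-68784444 (minus strand), chr1:88189211-88189460 (plus) and chr1:190475411-190475660 (minus). Capitals mark E-boxes (CANNTG, the same on either strand), the letters that myogenic factors such as MyoD bind, and in Acta1 also a CArG box, the letters that serum response factor binds.
Acta1: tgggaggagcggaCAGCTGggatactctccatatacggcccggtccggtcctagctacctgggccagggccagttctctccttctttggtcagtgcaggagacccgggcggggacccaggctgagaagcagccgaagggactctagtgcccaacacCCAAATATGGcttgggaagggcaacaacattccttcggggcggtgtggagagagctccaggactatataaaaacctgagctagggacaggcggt
Ckm: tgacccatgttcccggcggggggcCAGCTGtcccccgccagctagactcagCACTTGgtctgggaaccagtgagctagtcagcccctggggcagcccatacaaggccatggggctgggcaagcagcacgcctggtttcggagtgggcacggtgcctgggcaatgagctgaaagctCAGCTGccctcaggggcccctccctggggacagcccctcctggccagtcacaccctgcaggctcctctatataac
Atp2a1: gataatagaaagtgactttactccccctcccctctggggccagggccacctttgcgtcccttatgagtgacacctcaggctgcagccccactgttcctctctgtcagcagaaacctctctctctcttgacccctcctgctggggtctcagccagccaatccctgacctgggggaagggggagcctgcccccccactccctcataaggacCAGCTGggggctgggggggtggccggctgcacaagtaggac
The Ckm window held 3 E-boxes, and those of Acta1 and Atp2a1 held 1 each. The CArG box of Acta1 began 94 bases before the start (position -94). Of 33469 upstream windows of this length, 65.5% held an E-box and 1.50% a CArG box, so an E-box alone sets these genes little apart. The table held windows for 35 of the 41 genes, 39 windows in all, of which 32 held an E-box and 3 a CArG box. A further pattern searched, the MEF2 box (YTAWWWWTAR), was in 4 of the 39 windows, against 2.96% of all 33469. The 3 windows shown had no MEF2 box. These matches are letters only, and binding was not measured.

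Most members were dim. Of the 39 skeletal probe sets, 24 lay at or below the control level on all 6 arrays, and of the 16 cardiac probe sets, 13 did. Most other probe sets were dim too, as 42.5% to 44.6% of all 8740 lay above that level on a given array. For skeletal members this share was 20.5% to 35.9%, and for cardiac members 6.25% to 18.75%. Above it on at least 3 arrays were 9 skeletal probe sets, of Car3, Tpm3, Myh3, Myh1, Acta1, Pygm and Casq1, and 3 cardiac ones, of Casq2, Myl2 and Myl7. The median of the probe sets' mean intensities was 18.5 for skeletal and 7.30 for cardiac members. Probe sets differ in how brightly they report a transcript, so these values do not rank the genes. Below the control level everywhere was Myog, myogenin, which drives muscle cells to differentiate, with 4.8 at most. Outside the members the same held for Myod1 (6.3 at most), the myoblast factor, and for Ttn (5.2 at most), the sarcomere's giant spring. It did not hold for all other striated muscle genes. Of their 68 probe sets, 43 lay at or below the control level on all 6 arrays and 25 lay above it on at least 3.

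**Figure D1:**
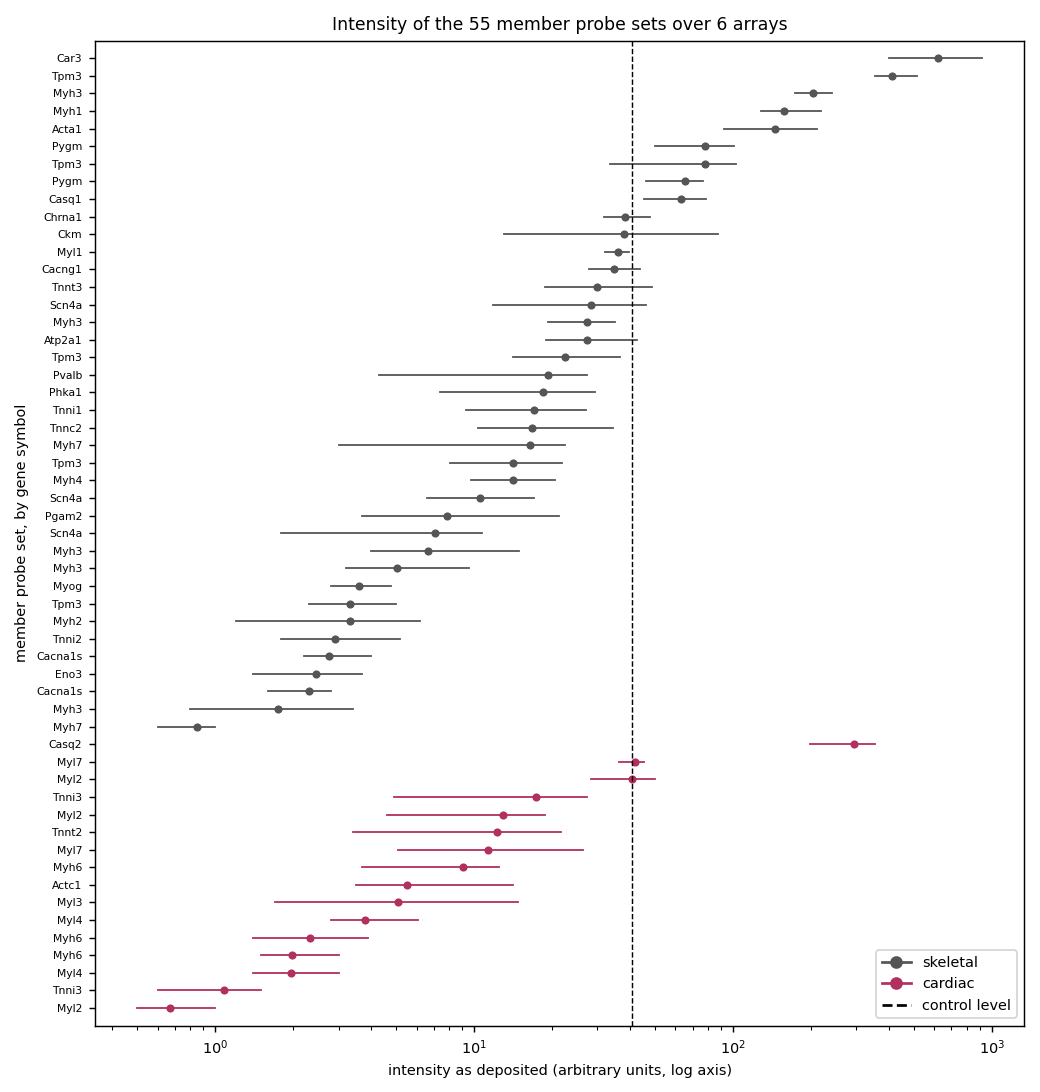
Intensity of each member probe set as deposited (x axis, arbitrary units, log scale), named by gene symbol (y axis); points are means and lines the range over 6 arrays, grey for skeletal and red for cardiac members. The dashed line is the control level of 40.8, and 37 of the 55 probe sets stay at or below it on every array.

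Among genes of the thin filament, Acta1 lay above the control level on all 6 arrays. It measured 143.9, 138.1 and 211.2 on non-runner chips A, B and C and 109.4, 92.6 and 175.8 on runner chips A, B and C. Chip C was the brightest of its group in each case, and the groups overlapped. Skeletal actin is nearly identical to smooth muscle actin as a protein, and whether the probe set also catches some of that abundant transcript was not tested. The brightest probe set of Acta2, smooth muscle actin, gave 4648, 2913 and 4595 on non-runner chips A, B and C and 3932, 3896 and 4412 on runner chips A, B and C. It was brightest on chip C among the runners and on chip A among the non-runners. Another Acta2 probe set gave 3308, 2385 and 3530 in the non-runners and 2907, 2747 and 3298 in the runners. Its order in each group was that of Acta1, with chip C brightest and chip B dimmest. The remaining Acta2 probe set had another order, with 2018.5, 2445.8 and 1870.5 in the non-runners and 2307.4, 2083.5 and 2293.9 in the runners. There chip C was the dimmest of the non-runners and chip A the brightest of the runners.

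Tnnt3, fast skeletal troponin T, which ties troponin to tropomyosin, measured 25.3, 21.7 and 48.6 in non-runners and 18.9, 22.4 and 43.2 in runners. It passed the control level on the chips C alone. Tnnc2, the calcium-binding troponin of fast fibres, measured 11.4, 12.1 and 34.6 in non-runners and 10.4, 10.8 and 21.2 in runners. It too was brightest on chip C of each group, but all 6 values lay below the control level. The inhibitory troponins were not brightest there: Tnni1, of slow fibres, was at most 27.2, on non-runner A, and Tnni2, of fast fibres, at most 5.2, on runner B.

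Tpm3, a tropomyosin of slow fibres that other cells also make, had 5 probe sets that did not move together. The bright one (S82383_s_at) measured 355.3, 367.8 and 513.2 in non-runners and 384.2, 429.5 and 417.2 in runners. Another (rc_AA859305_s_at) measured 79.7, 33.6 and 78.1 in non-runners and 75.0, 103.0 and 98.3 in runners, with its low value on non-runner B. The other probe sets stayed at or below 36.7.

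Genes of the thick filament did not move as 1 group. Myh1, the myosin heavy chain of fast 2X fibres, measured 153.8, 219.4 and 130.6 in non-runners and 161.9, 150.8 and 128.6 in runners. Here chip C was the dimmest of its group in each case, the reverse of Acta1. Myh3, the embryonic heavy chain, measured 174.3 to 241.1 over all 6 arrays in 1 probe set, while its other 4 probe sets stayed at or below 35.1. Probe sets of 1 gene thus disagree on whether Myh3 is above the control level.

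Myh4, the heavy chain of the fastest fibres, measured 16.8, 11.2 and 20.6 in non-runners and 9.7, 10.4 and 15.9 in runners. Myh7, the slow and cardiac heavy chain, reached 21.9 on non-runner C and 22.5 on runner C in the brighter of its probe sets. Non-runner A came close, at 21.1. Myh4 and this Myh7 probe set were brightest on chip C of each group, below the control level throughout. The dimmer Myh7 probe set was at most 1 and did not have that order. Myh2, of fast oxidative fibres, reached 6.2, on non-runner B. Myl1, a light chain of fast fibres, ran from 32.2 to 39.9, just under the control level. It was also brightest on chip C of each group, at 37.5 and 39.9, but by a small margin.

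For calcium handling, Atp2a1 measured 19.0, 24.8 and 42.6 in non-runners and 21.5, 21.1 and 34.4 in runners. Only non-runner C lay above the control level. Casq1, the calcium-storing calsequestrin of skeletal muscle, measured 78.8, 66.9 and 45.4 in non-runners and 63.1, 61.7 and 62.5 in runners. It was dimmest where Atp2a1 was brightest. Pvalb, parvalbumin, a calcium buffer of fast fibres, lay at 4.3 on non-runner A and at 17.9 to 27.4 elsewhere.

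Genes of the muscle membrane were near or below the control level. Chrna1, the acetylcholine receptor subunit of the nerve-muscle junction, measured 42.0, 35.0 and 36.4 in non-runners and 31.8, 36.4 and 48.1 in runners. Cacng1, a subunit of the skeletal calcium channel, measured 27.9, 31.7 and 32.2 in non-runners and 36.4, 37.4 and 43.8 in runners. It was the 1 tested member whose groups did not overlap, against 14.9% of all tested probe sets (7.38% with runners higher and 7.49% with runners lower). Only runner C lay above the control level. Scn4a, the skeletal sodium channel, reached 46.3 on runner C in 1 probe set and at most 17.0 in the others. The pore subunit of the calcium channel, Cacna1s, stayed at or below 4.0.

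In energy supply, Ckm varied more between chips on the log2 scale than any other member tested. It measured 19.5, 28.8 and 88.0 in non-runners and 20.6, 13.1 and 57.9 in runners. On non-runner C it was 2.15 times the control level, and the 4 chips A and B lay below that level. Part of its rank thus comes from values below that level. With such values raised to it, the highest-to-lowest ratio of Ckm was 2.15. That of a Tpm3 probe set was 2.52, of Car3 2.30 and of Acta1 2.28. Car3, a carbonic anhydrase of slow muscle that fat cells also make, measured 606.2, 399.7 and 919.5 in non-runners and 467.2, 607.1 and 740.6 in runners. It too was brightest on chip C of each group.

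Pygm, muscle glycogen phosphorylase, measured 65.1, 46.1 and 65.0 in non-runners and 76.7, 63.3 and 77.0 in runners in 1 probe set. The second measured 101.5, 50.1 and 84.7 in non-runners and 80.0, 70.9 and 82.6 in runners. Each was lowest on non-runner B. Phka1, a subunit of the kinase that activates phosphorylase, stayed at or below 29.3, and Pgam2, a glycolytic mutase of muscle, at or below 21.4. Eno3, muscle enolase, stayed at or below 3.7.

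**Figure D2:**
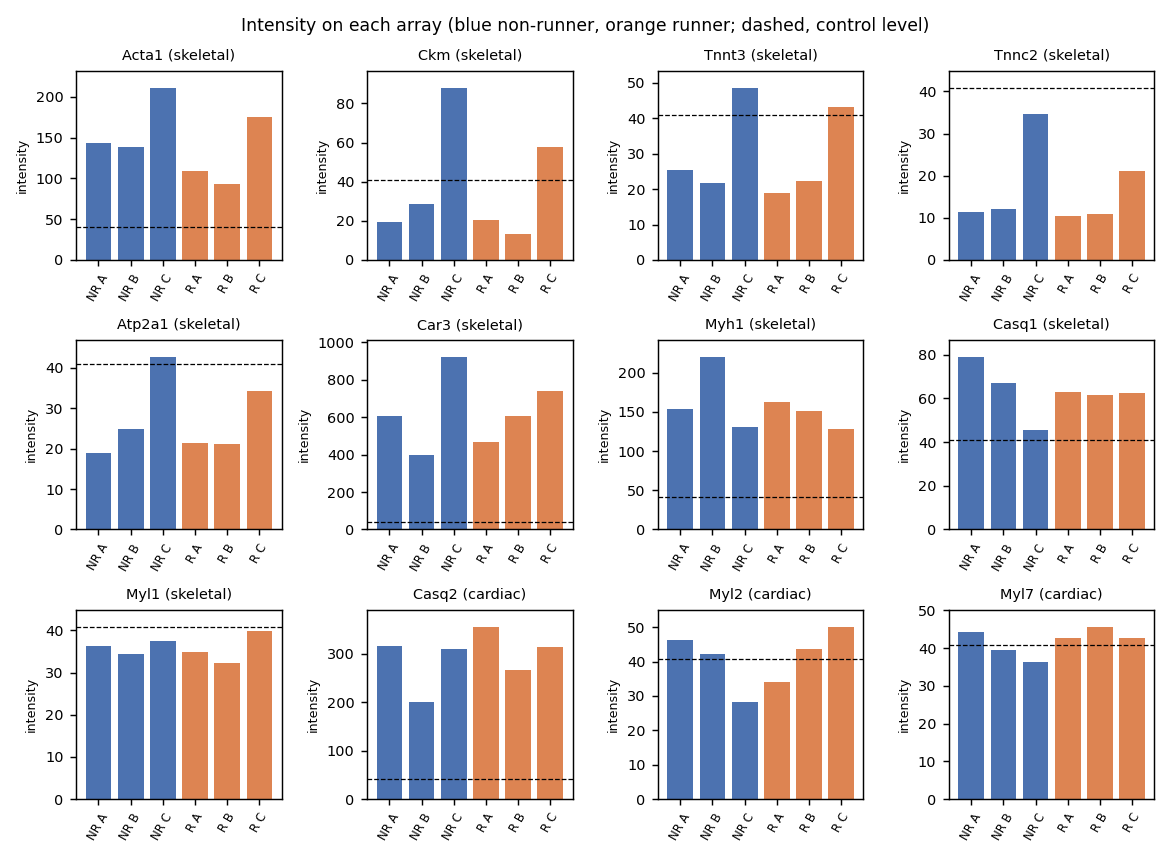
Intensity of 12 member probe sets (y axes, as deposited, each panel with its own scale from 0) on non-runner chips A to C (blue) and runner chips A to C (orange), with 1 bar per array and the control level of 40.8 dashed. Acta1, Ckm, Tnnt3, Tnnc2, Atp2a1 and Car3 are tallest on chip C of each group, while Myh1 is shortest there.

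The cardiac members gave little signal beyond Casq2, cardiac calsequestrin, which some smooth muscle also makes. Casq2 measured 315.0, 199.4 and 310.4 in non-runners and 355.3, 266.5 and 314.6 in runners, lowest on non-runner B. Myl2, the ventricular regulatory light chain, measured 46.2, 42.2 and 28.3 in non-runners and 34.2, 43.7 and 50.1 in runners in the brightest of its 3 probe sets. Myl7, the atrial one, measured 44.2, 39.6 and 36.2 in non-runners and 42.7, 45.6 and 42.6 in runners in the brighter of its probe sets. Both lay close to the control level, and their dimmer probe sets reached 18.8 for Myl2 and 26.5 for Myl7.

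Apart from Casq2, Myl2 and Myl7, the probe sets annotated solely to a cardiac member were below the control level on every array. Tnni3 and Tnnt2, the cardiac troponins I and T, were at most 27.3 and 21.7. Myh6, the atrial myosin heavy chain, was at most 12.5 over its 3 probe sets, and Actc1, cardiac actin, at most 14.2. Of 4 probe sets annotated to Acta2 and Actc1 together, a pair lay above the control level on all 6 arrays, at 130.7 to 212.5 and at 72 to 105, and which of these genes they report was not tested. Myl3 and Myl4, the ventricular and atrial essential light chains, were at most 14.8 and 6.1.

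For 14 of the 18 tested skeletal probe sets (77.8%) the groups differed by less than the spread between chips of a group (1 residual SD). So did 64.2% of all tested probe sets. Of the 18 skeletal probe sets tested, 8 (44.4%) were brightest on chip C in each group, against 8.98% of all 5244 tested probe sets. They belong to Acta1, Atp2a1, Cacng1, Car3, Ckm, Myl1, Scn4a and Tnnt3. Of these, only Acta1 and Car3 lay above the control level on at least 3 arrays, so most of the count comes from dim probe sets. The bright probe sets of Tpm3, Myh3, Myh1, Pygm and Casq1 did not have that order. Non-runner C led the next chip narrowly for Cacng1 (32.2 against 31.7) and Myl1 (37.5 against 36.4). Among the 21 untested skeletal probe sets, 6 had that order (28.6%, against 12.0% of all 3496 untested probe sets), of Myh4, Myh7, Pgam2, Scn4a and Tnnc2. This count was chosen after the values were seen, and no test is given. It was 8 of 18 on quantile normalized values too. Without non-runner B it was 10 of 18, and the share of all tested probe sets rose from 8.98% to 15.7%. Leaving out a chip A or B can only keep or raise such counts, so this does not check the order.

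Taken by group, non-runner C was the brightest of its chips for 10 of the 18 (55.6%, against 24.3% of all tested probe sets). Runner C was the brightest for 13 (72.2%, against 39.6%). None of the 3 tested cardiac probe sets was brightest on chip C in each group. Of 38 tested probe sets for other striated muscle genes, 3 were (7.89%), those of Gja5, Pfkm and Slc2a4.

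**Figure D3:**
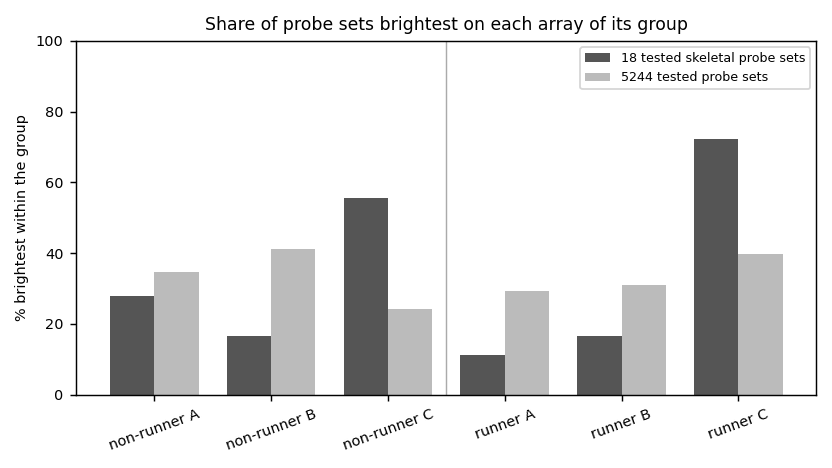
Share of probe sets (y axis, percent) that were brightest on each array (x axis) among the 3 arrays of its group, for 18 tested skeletal probe sets (dark) and all 5244 tested probe sets (light). The dark bars stand at 55.6% on non-runner C and 72.2% on runner C, against light bars of 24.3% and 39.6%.

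Skeletal and cardiac members were set side by side on each array by their mean log2 level, each probe set centred on its mean over 6 arrays. The skeletal mean was 0.28 on non-runner C and 0.19 on runner C, and between -0.15 and -0.10 on the other chips. The cardiac mean, over 3 probe sets, was -0.15 on non-runner C and 0.11 on runner C. So the skeletal mean exceeded the cardiac one by 0.43 on non-runner C, by 0.09 on runner C and by 0.06 on non-runner B. On non-runner A, runner A and runner B the difference was -0.20, -0.22 and -0.16. The cardiac mean rests on Casq2, Myl2 and Myl7 alone, of which the last pair were near the control level.

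Smooth muscle markers, the vessel's own muscle, were also highest on chip C of each group by this mean, at 0.04 on non-runner C and 0.09 on runner C, but runner A lay at 0.07, and the lowest chip, non-runner B, at -0.18. By the count used for the skeletal members, 1 of their 14 probe sets (7.14%) was brightest on chip C in each group, and runner C was the brightest runner chip for 2 of 14 (14.3%, against 39.6% of all tested). The other striated muscle genes were highest on non-runner C, at 0.11, and lowest of the runners on runner C, at -0.05. Brown fat markers averaged 0.39, -0.60 and 0.37 on non-runner chips A, B and C and 0.02, 0.22 and -0.40 on runner chips A, B and C. Adipocyte markers averaged 0.18, -0.41 and 0.17 in non-runners and 0.03, 0.09 and -0.06 in runners. By this mean non-runner B was the lowest chip for both lists and non-runner A the highest, with non-runner C close behind. Their summed intensities were 2271 to 4271 in non-runners and 2552 to 4107 in runners for brown fat, and 3772 to 5090 and 4342 to 4656 for adipocytes. By these sums non-runner C was the highest chip for both lists. Nerve and Schwann cell markers averaged 0.34, 0.16 and 0.09 on non-runner chips A, B and C and -0.47, 0.20 and -0.32 on runner chips A, B and C. In such pooled tissue, more cells of a type and more RNA per cell cannot be told apart, and why chip C differs was not tested.

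**Figure D4:**
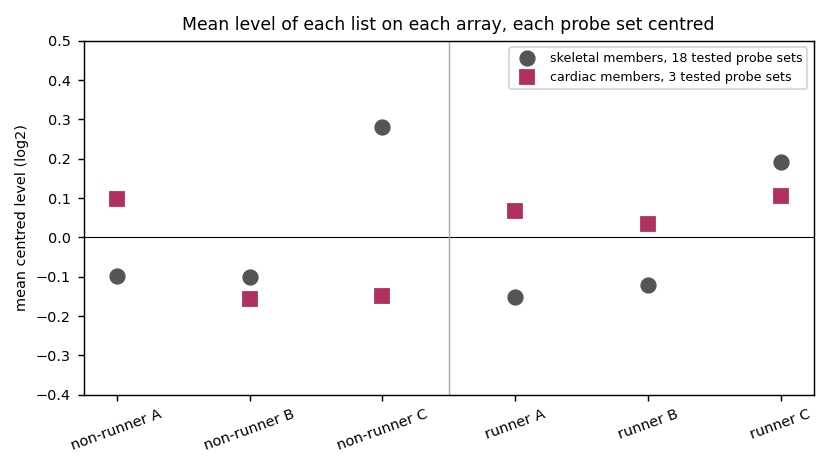
Mean centred log2 level (y axis) of 18 tested skeletal probe sets (grey circles) and 3 tested cardiac probe sets (red squares) on each array (x axis). The skeletal mean is above 0 on the chips C alone, at 0.28 and 0.19, while the cardiac mean lies between -0.16 and 0.11.

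Against this spread, no member differed between runners and non-runners by limma. Of the 55 member probe sets 21 were tested, as the dimmest 40% of all probe sets were left out, and 0 of them passed at an adjusted p under 0.05, like 0 of all 5244 (0%). At an unadjusted p under 0.05 there were 0 members, where 8.09% of all tested probe sets had one (3.87% higher in runners and 4.21% lower). The lowest adjusted p of a member was 0.649, for Cacng1. The 18 skeletal probe sets had a median log2 difference (runner minus non-runner) of -0.02, with 7 above 0 and 11 below, where 49.5% of all tested probe sets were above 0. The 3 cardiac ones had a median of 0.11. Over all tested probe sets the median was -0.004.

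Ckm had the lowest difference, -0.54 ± 0.61 (log2, SE), its mean intensity being 45.4 ± 37.2 without running and 30.5 ± 24.0 with it (SD, n = 3). Its residual SD was 1.03 on the log2 scale, and 0.42% of all tested probe sets had a larger one. Without non-runner C the difference was 0.06, and leaving out no other chip turned its sign. Acta1 differed by -0.40 ± 0.27 (SE; limma adjusted p = 0.726), with means of 164 ± 40.6 and 126 ± 44.0 (SD, n = 3). It stayed below 0 whichever chip was left out, from -0.67 to -0.21, and the end at -0.67 came without runner C.

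For Tnnt3 the difference was -0.20 ± 0.35 and for Atp2a1 -0.15 ± 0.30 (log2, SE). Each turned positive without non-runner C, to 0.15 and 0.16. The Tpm3 probe set with low signal on non-runner B had the highest difference, 0.57 ± 0.31, which fell to 0.19 without that chip. Another Tpm3 probe set, below the control level on all arrays, differed by -0.39 ± 0.28. Cacng1 differed by 0.31 ± 0.15, with means of 30.6 ± 2.4 and 39.2 ± 4.0 (SD, n = 3), both below the control level.

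Casq1, Car3, Chrna1, the bright probe set of Myh3 and that of Tpm3 lay within 0.04 of 0. Casq2 differed by 0.20 ± 0.22, Myl2 by 0.11 ± 0.20 and Myl7 by 0.10 ± 0.14 (log2, SE). The difference was smaller than 1 residual SD for 14 of the 18 skeletal probe sets (77.8%) and for 64.2% of all those tested. The median residual SD was 0.33 for the skeletal members and 0.23 for all tested probe sets. Among members too dim to test, the dim Myl7 probe set averaged 6.3 ± 1.3 without running and 16.3 ± 9.3 with it, and Tnni3 in its brighter probe set 21.6 ± 5.1 and 13.0 ± 7.0 (SD, n = 3). Their groups did not overlap, but all values lay below the control level. Every other probe set among the 34 untested ones of members had groups that overlapped. How often groups failed to overlap over all untested probe sets was not counted.

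**Figure D5:**
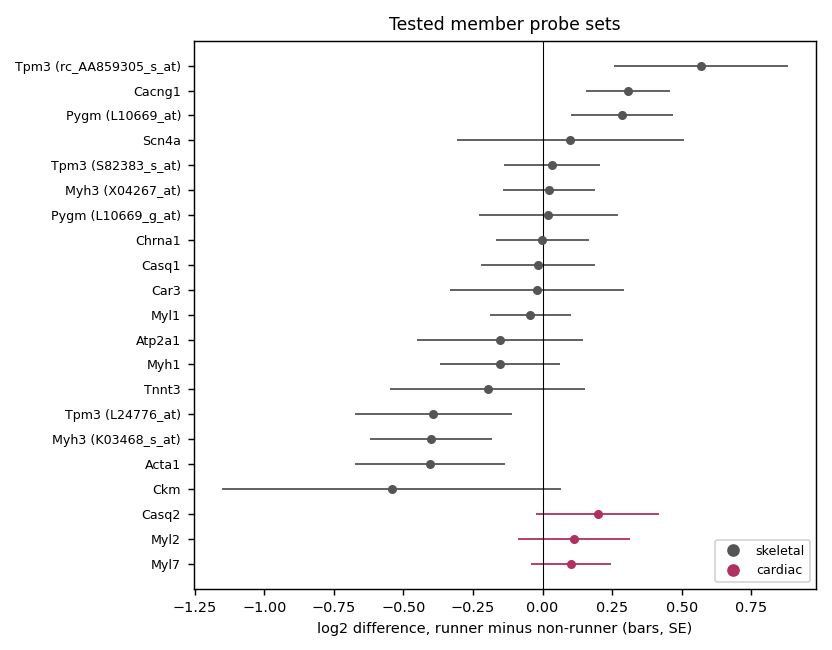
Log2 difference, runner minus non-runner (x axis), for the 21 tested member probe sets (y axis), with SE bars; grey for skeletal and red for cardiac members. Skeletal values run from -0.54 (Ckm) to 0.57 (a Tpm3 probe set), and Ckm has the widest bar.

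A wider list of other striated muscle genes gave the same picture of no call. Probe sets were found for 44 of its 74 genes, and 38 were tested. Of these 0 passed limma at an adjusted p under 0.05, 1 was higher and 0 lower at an unadjusted p under 0.05, and the median log2 difference was 0.03. The 1 was a probe set of Atp2a2, the calcium pump of heart, slow and smooth muscle, at 74.1 ± 19.8 without running and 117 ± 3.7 with it (SD, n = 3; limma adjusted p = 0.508). A brighter Atp2a2 probe set measured 609 ± 123 and 623 ± 39.0. Des, desmin, an intermediate filament protein of muscle, measured 783 ± 216 and 787 ± 25.5, and Pln, phospholamban, which restrains that pump, 188 ± 8.3 and 179 ± 24.3.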

How the data were processed

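The deposited table holds 1 intensity per probe set and chip on a linear scale. Which software made it, and with what scaling, the sources used here do not say. Gene symbols came from the platform annotation, and gene identifiers of all 55 member probe sets matched the GRCr8 gene table, with 0 symbols changed. The 59 control probe sets were removed, values were taken as log2(intensity + 2.4), the 10th percentile of positive values, and quantile normalized, since array medians differed by up to 1.13 times. The dimmest 40% were left out. Groups were compared with limma 3.58.1 in R 4.3.3 (two-sided, Benjamini-Hochberg over 5244 probe sets), and the fit was tested on simulated data. Exact permutation of 3 against 3 cannot go below p = 0.1. The p-values measure the spread between pools, and the number of arrays limits precision. Members and lists were chosen with earlier results of these data known. Every member probe set was described, with values per array for the brighter ones. Intensities in the text, and overlaps, are as deposited. Same-lettered chips did not deviate together (correlations of -0.09, -0.04 and -0.05), so letters were not used to pair. Another 6 probe sets with several symbols were left out.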

Additional observations from a re-analysis of the deposited data

How the results depend on the processing

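Every setting run on all 6 arrays kept 0 calls by limma, over all probe sets and over members. With each array left out in turn, the calls over all probe sets were 0 to 4, with 0 to 4 higher and 0 to 1 lower. The calls came without non-runner A (2) and non-runner C (4), and none was a member. At an unadjusted p under 0.05, 1 member was found with no filter on dim probe sets and 1 with the dimmest 20% left out, the dim Myl7 probe set in each case. Leaving out arrays gave 0 to 2, namely Myh3 and Tpm3 without non-runner A and Acta1 without runner C. The cardiac median was 0.0076 with no filter, which is the same as over all 16 cardiac probe sets, dim ones included (0.0076, chosen after the data were seen). Leaving out 1 array moved it to between 0.0517 (without non-runner C) and 0.216 (without non-runner A). The skeletal median ranged from -0.12 without runner C to 0.09 without non-runner C, and was 0.02 with a stricter filter on dim probe sets, so its sign was not fixed. With the chip letter as a replicate block, 359 probe sets had an unadjusted p under 0.05 in place of 424, and the block changed no call. The sign of 5 of 21 tested member probe sets flipped under at least 1 of 4 scaling or pseudocount alternatives, and of 14 when some array was left out. Members above the control level on at least 3 arrays numbered 12, or 16 and 10 with the 90th percentile or the highest value of the controls as the level.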

Other observations

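A probe set annotated to several skeletal myosin heavy chains together, and so left out of the member counts, measured 5.8, 6.3 and 22.8 on non-runner chips A, B and C and 5.6, 6.8 and 11.2 on runner chips A, B and C. It was brightest on chip C of each group, like Ckm and Tnnc2, and all its values lay below the control level. It was singled out after its values were seen.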
